A study of Mus musculus with 6 samples.

Results

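The genes described here are 10 genes of the early neural lineage: the transcription factor genes Pax6, Sox1, Sox3, Sox21 and Zic1, the progenitor genes Fabp7 and Nes, and the neuronal genes Map2, Tubb3 and Ncam1. They were named with earlier results of these data known, no threshold on their values was used, and each was read from a probe set that the array's annotation assigns to that gene alone. Each of the 10 had 1 such probe set, among 19938 genes measured in the same way.

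Neural identity arises from the epiblast when signals that hold it back, BMP and Nodal among them, are low. Sox1 and Sox3 encode SoxB1 proteins, which keep neural progenitors undifferentiated, while Sox21 encodes a SoxB2 protein that opposes them on shared targets. Pax6 marks the anterior neural plate, the eye and the radial glia of the cortex, and genes such as Map2 and Tubb3 mark cells that take on a neuronal cytoskeleton.

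RNA came from mouse induced pluripotent stem cells (iPSCs), fibroblasts reprogrammed to a state that can form every tissue of the body. The naive group had 3 arrays, of cells grown in serum (15%) with leukaemia inhibitory factor (LIF) at 1000 U/ml. The primed group had 3 arrays, of cells grown in medium conditioned by mouse embryonic fibroblasts, with basic FGF at 8 ng/ml, on feeder cells or Matrigel. By their titles the naive lines came from embryonic and the primed lines from adult dermal fibroblasts, but another label names embryonic fibroblasts for both, so culture state and source of the line cannot be told apart. The labels give no strain, sex, passage or number of lines, no array of a neural cell was included, and what a biological replicate repeated is not said. The p-values therefore cover the spread among these arrays, which may be technical.

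Values are log2 expression after RMA (robust multi-array average), and differences are primed minus naive. Across genes, arrays of the same group correlated at 0.998 to 0.999 and arrays of different groups at 0.980. A gene was taken to lie in background in a group where each of the 3 arrays was under a cutoff, that array's 95th percentile over 1190 genes for olfactory or vomeronasal receptors, which lay between 6.96 and 7.03. Of 8 markers of pluripotent cells, 8 lay above background in both groups, so the labelled cell type was present in both. In bulk RNA, fewer cells of a type and less RNA per cell cannot be told apart.

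Promoters are shown for the transcription factor genes and the progenitor gene that rose in primed cells and have an entry in RefSeq's table of assembly GRCm38.p6, which covers 250 bases before to 50 after a start. Entries were found for 8 of the 10 genes, in 9 windows. Pax6 has windows at chr2:105668646-105668945 and chr2:105682213-105682512 (both plus strand), Sox1 at chr8:12395269-12395568 (plus strand), Sox21 at chr14:118236981-118237280 (minus strand) and Fabp7 at chr10:57784673-57784972 (plus strand). Capitals mark matches on either strand to 4 motifs: the SOX core ACAAT, the POU octamer ATGCAAAT, the TATA box TATAAA and the CCAAT box CCAAT.
Pax6, first start: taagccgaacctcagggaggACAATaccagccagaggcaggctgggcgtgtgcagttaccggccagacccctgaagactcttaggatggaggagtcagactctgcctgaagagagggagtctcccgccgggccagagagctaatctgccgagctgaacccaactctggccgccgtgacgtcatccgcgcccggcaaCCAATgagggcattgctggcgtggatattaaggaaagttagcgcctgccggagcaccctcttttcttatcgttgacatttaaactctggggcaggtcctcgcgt
Pax6, second start: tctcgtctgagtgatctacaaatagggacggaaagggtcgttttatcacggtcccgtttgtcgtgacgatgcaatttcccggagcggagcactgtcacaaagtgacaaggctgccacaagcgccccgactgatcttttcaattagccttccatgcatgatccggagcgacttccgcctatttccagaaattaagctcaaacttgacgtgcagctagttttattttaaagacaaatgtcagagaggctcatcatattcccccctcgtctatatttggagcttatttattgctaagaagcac
Sox1: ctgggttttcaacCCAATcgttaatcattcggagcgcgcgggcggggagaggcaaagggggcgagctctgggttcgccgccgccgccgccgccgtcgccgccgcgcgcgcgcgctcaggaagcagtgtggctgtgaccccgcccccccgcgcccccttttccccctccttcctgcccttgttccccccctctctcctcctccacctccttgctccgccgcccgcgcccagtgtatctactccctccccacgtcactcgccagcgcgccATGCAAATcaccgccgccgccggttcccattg
Sox21: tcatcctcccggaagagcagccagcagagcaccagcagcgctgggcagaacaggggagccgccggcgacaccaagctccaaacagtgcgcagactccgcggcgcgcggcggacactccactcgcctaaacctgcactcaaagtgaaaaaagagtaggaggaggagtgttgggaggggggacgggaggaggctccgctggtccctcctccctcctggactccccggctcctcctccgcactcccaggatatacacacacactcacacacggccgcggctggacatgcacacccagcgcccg
Fabp7: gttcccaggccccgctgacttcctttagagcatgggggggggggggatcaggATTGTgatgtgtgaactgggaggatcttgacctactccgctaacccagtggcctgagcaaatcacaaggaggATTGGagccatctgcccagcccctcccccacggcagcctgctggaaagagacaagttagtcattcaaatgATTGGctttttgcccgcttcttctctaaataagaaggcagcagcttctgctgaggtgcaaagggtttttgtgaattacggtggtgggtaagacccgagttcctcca

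Distances are those of a match's first base as read in the window. The first Pax6 window held a SOX core 230 bases before the start and a CCAAT box 54 bases before it, and the second Pax6 window held no match. The Sox1 window held an octamer 19 bases after the start and a CCAAT box 237 bases before it. The Fabp7 window held a SOX core 198 bases before the start and CCAAT boxes 126 and 56 bases before it. No match was found in the Sox21 window. Of the windows not printed, that of Tubb3 held 3 SOX cores and a CCAAT box, that of Zic1 held a SOX core and 2 CCAAT boxes, that of Nes held a SOX core and that of Map2 held no match. No matches overlapped in the 9 windows. Among 32851 windows of this length, 31.0% held the SOX core, 37.4% the CCAAT box, 13.6% the TATA box and 1.74% the octamer. A match describes letters in a window and is not evidence of binding.

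Of the 10 early neural genes, 8 were higher in primed cells, 0 were lower and 2 did not pass (limma, Benjamini-Hochberg adjusted p under 0.05 over 19938 genes). At an unadjusted p under 0.05 the counts were 8 and 1, the fall being Nes. Over all genes the same rule called 21.8% higher and 22.7% lower, and among genes with at least 1 array above its background cutoff it called 27.8% higher. The median difference was 0.57 over the 10 genes and -0.0015 over all genes. With each array centred on its median gene, the 10 genes gave 8 rises and 1 fall, while the calls over all genes moved from 4347 higher and 4529 lower to 3439 higher and 6325 lower. The values of naive and primed arrays did not overlap, with primed higher, for 8 of the 10 genes, against 25.9% of all genes.

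**Figure D1:**
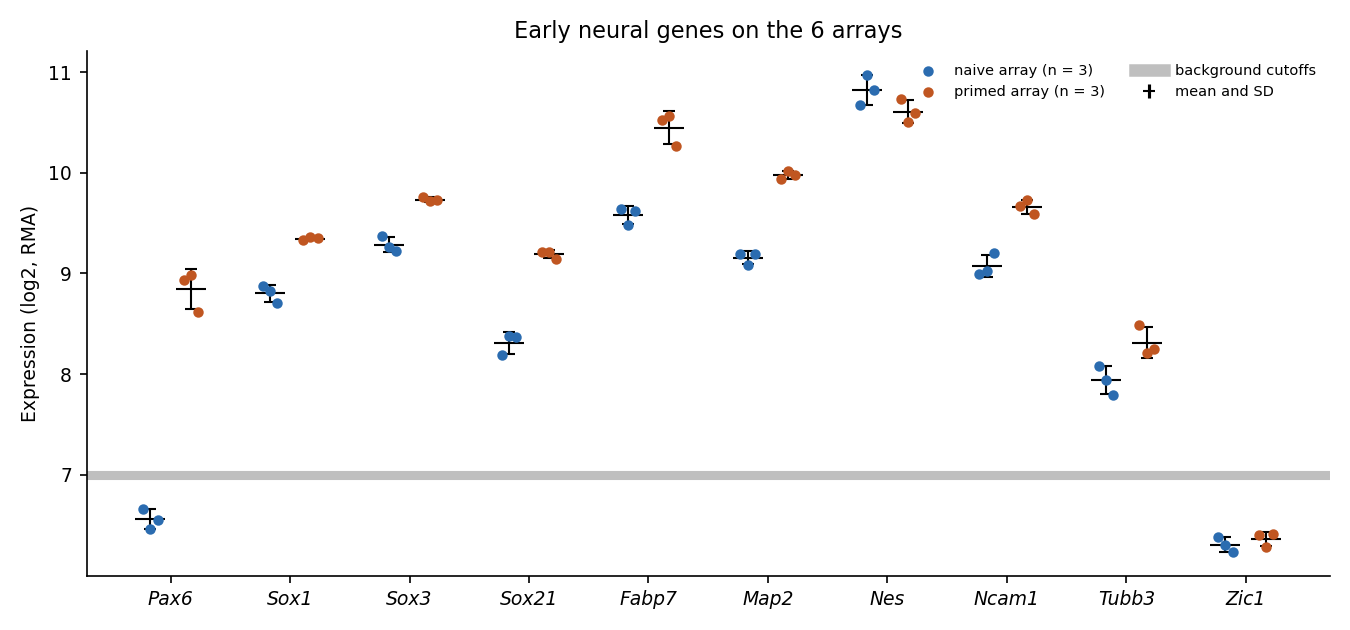
Log2 RMA expression of the 10 early neural genes (horizontal axis) on each array, naive in blue and primed in orange, with the mean and SD of each group (n = 3) and the range of the background cutoffs in grey. Primed points lie above naive points for 8 genes, the Nes points overlap, and Zic1 lies under the cutoffs in both groups.

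Pax6 had the largest difference of the set. Its probe set read 6.66, 6.47 and 6.55 on the naive arrays and 8.93, 8.99 and 8.62 on the primed arrays. The naive arrays all lay in background and the primed arrays all lay more than a log2 unit above it, with primed replicate 3 the lowest of them. The difference was 2.29 (SE 0.09, limma adjusted p = 5.7e-09). Because the naive level is a background reading, the fold is a bound. Taking the background cutoff as the naive level, primed cells were at least 3.58-fold higher. Bounds given here and below depend on the cutoff. With the 99th percentile of receptor genes (7.86, 7.81 and 7.79 on the naive arrays) they would be lower. Of the 10 genes, Pax6 was the one that differed at least 2-fold, a size reached with a passing rise by 1.71% of all genes.

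Of the SoxB genes, Sox1, Sox3 and Sox21 rose by less and from levels already above background. Sox1, the SoxB1 gene most restricted to neural cells in the early embryo, read 8.87, 8.83 and 8.71 on naive arrays and 9.33, 9.36 and 9.35 on primed arrays. The primed values sat within a few hundredths of each other and above the highest naive value. The rise of 0.54 (SE 0.06, limma adjusted p = 1.1e-05) is 1.46-fold, with a 95% interval of 1.34 to 1.59. Sox3, which is expressed in the epiblast before the neural plate forms, read 9.37, 9.26 and 9.22 on naive and 9.76, 9.72 and 9.72 on primed arrays. Here too the groups stood apart, by a rise of 0.45 (SE 0.06, limma adjusted p = 4.6e-05), or 1.36-fold with a 95% interval of 1.25 to 1.48.

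Sox21, the SoxB2 gene, read 8.19, 8.38 and 8.37 on naive arrays and 9.22, 9.21 and 9.14 on primed arrays. The groups were separated by several times their spread. The rise was 0.88 (SE 0.06, limma adjusted p = 5.3e-07), or 1.84-fold with a 95% interval of 1.67 to 2.02.

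Zic1, a zinc finger factor of the dorsal neural tube and cerebellum, was in background on every array, at 6.38, 6.31 and 6.24 in naive and 6.40, 6.28 and 6.41 in primed cells. The values overlapped, with a difference of 0.06 (95% interval -0.07 to 0.19, limma adjusted p = 0.50). A gene read in background can change without this array showing it.

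The progenitor genes split. Fabp7, which encodes the fatty acid carrier of radial glia, read 9.65, 9.48 and 9.62 on naive arrays and 10.52, 10.56 and 10.26 on primed arrays. As with Pax6, primed replicate 3 was the lowest primed array, and it still lay above each naive value. The rise was 0.87 (SE 0.08, limma adjusted p = 4.1e-06), or 1.82-fold with a 95% interval of 1.61 to 2.06. Nes, which encodes the intermediate filament nestin of neural progenitors and of several other dividing cell types, read 10.68, 10.97 and 10.82 on naive and 10.73, 10.50 and 10.59 on primed arrays. Naive replicate 1 lay below primed replicate 1, so the groups overlapped. The difference was -0.21 (95% interval -0.39 to -0.04, limma adjusted p = 0.052), just outside the threshold. Without naive replicate 1 it was -0.29 (limma adjusted p = 0.013) and without primed replicate 1 it was -0.28 (limma adjusted p = 0.027), both of which pass as falls. Without naive replicate 2 it was -0.14 (limma adjusted p = 0.20) and without primed replicate 2 it was -0.16 (limma adjusted p = 0.18), neither of which passes.

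The neuronal genes rose together by unequal amounts. Map2, for a microtubule-associated protein of dendrites, read 9.19, 9.08 and 9.20 on naive and 9.94, 10.02 and 9.97 on primed arrays. The groups were well apart, with a rise of 0.82 (SE 0.05, limma adjusted p = 3.2e-07), or 1.77-fold with a 95% interval of 1.63 to 1.92. Ncam1, for the neural cell adhesion molecule, read 9.0, 9.03 and 9.20 on naive and 9.67, 9.73 and 9.59 on primed arrays. Naive replicate 3 came closest to the primed arrays without reaching them. The rise was 0.59 (SE 0.07, limma adjusted p = 2.1e-05), or 1.5-fold with a 95% interval of 1.36 to 1.66.

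Tubb3, for the beta-tubulin used as a marker of new neurons, had the smallest passing rise. The probe set read 8.08, 7.95 and 7.80 on naive and 8.49, 8.21 and 8.25 on primed arrays. The highest naive array and the lowest primed array were close without crossing. The rise was 0.37 (SE 0.09, limma adjusted p = 0.0044), or 1.29-fold with a 95% interval of 1.13 to 1.48.

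The families of these factors were read in full. In the SoxB group, the SoxB1 gene Sox2, a core pluripotency factor as well as a neural one, went the other way from Sox1 and Sox3: it read 12.42, 12.42 and 12.43 on naive and 11.84, 11.91 and 11.96 on primed arrays. It fell by 0.52 on the log2 scale (limma adjusted p = 8.2e-06). The SoxB2 gene Sox14 fell by 0.31 (limma adjusted p = 0.0023) where Sox21 rose. Sox4 (1.09), Sox12 (0.78) and Sox11 (0.47), which form the SoxC group active in differentiating neurons, were each higher in primed cells. Of the others, Sox5 rose by 0.18 (0.11 and not passing after centring on the median gene). Its group means, 6.94 in naive and 7.12 in primed cells, were close to the background cutoffs. Sox6 (-0.09), Sox8 (-0.0041), Sox9 (0.15) and Sox10 (-0.04) did not pass. Sox6 passed as a fall under either rescaling, at -0.16 with median centring and -0.15 with quantile normalization.

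Among Zic genes, Zic2 rose by 0.64 and Zic5 by 0.76, both from high readings, while Zic4 (0.02) lay in background in both groups like Zic1. Zic5 was read from the brighter of 2 probe sets. The identifier of that probe set lies outside the run of the other chromosome 14 genes read here, so which locus it reads is uncertain. Among the 8 other Pax genes, Pax2, a gene of the midbrain-hindbrain boundary and kidney, rose by 0.38 (limma adjusted p = 0.00048). The other 7 did not pass, with differences between -0.09 for Pax5 and 0.03 for Pax7, and 0 fell (0 at an unadjusted p under 0.05 as well). Pax3 lay in background in both groups. Pax4, Pax5, Pax8 and Pax9 had group means of 7.06 to 7.40, close to the background cutoffs, so a change in them could go unseen.

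**Figure D2:**
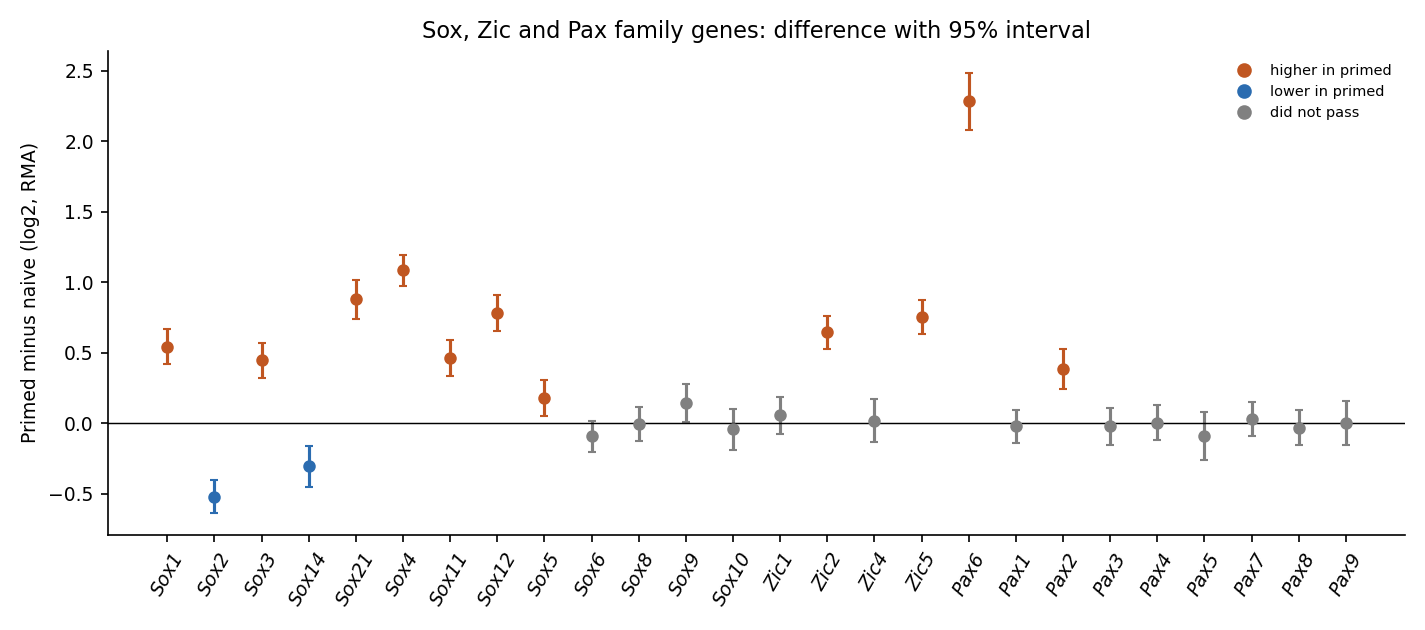
Difference between primed and naive cells (log2 RMA, vertical axis) for the measured Sox, Zic and Pax family genes (horizontal axis), with 95% intervals from limma, orange for genes that rose, blue for genes that fell and grey for genes that did not pass. Pax6 stands at 2.29 while 7 of the other 8 Pax genes lie near 0, and Sox2 and Sox14 lie below 0.

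Of 29 measured regulators of the anterior neural plate, eye field and regional neural tube, 10 were higher in primed cells, 2 were lower and 17 did not pass, with a median difference of 0.11. For this and the lists that follow, the shares over all genes were 21.8% higher and 22.7% lower. Among genes with at least 1 array above its cutoff, 27.8% were higher. Departure of a list from these shares was not tested. Meis2, a homeobox cofactor gene, read 9.20, 9.34 and 9.30 on naive and 11.64, 11.57 and 11.49 on primed arrays, a rise of 2.29 (SE 0.06, limma adjusted p = 3.0e-10). Dach1, of the eye gene network, rose by 1.19 and En2, of the midbrain-hindbrain region, by 0.80. Both were in background in naive cells, and as bounds Dach1 was at least 1.75-fold and En2 at least 1.34-fold higher. Otx2, of the forebrain and midbrain, rose by 0.92. The eye field genes Six3 (0.0025), Six6 (-0.0026) and Rax (-0.05) did not pass, and Gbx2 (-0.38) and Meis1 (-0.39) were lower. Hesx1, Lhx5, Emx2, Nr2f1 and Nr2f2 were in background on every array. Six3, Six6 and Rax, with group means of 7.08 to 7.35, read close to the cutoffs, so a change in them could go unseen.

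Among 16 measured proneural and neurogenic genes, 9 were higher, 3 were lower and 4 did not pass, with a median difference of 0.22. The 3 that fell were the Id genes, whose products restrain proneural factors, mainly by sequestering their E-protein partners. Id3 read 10.38, 10.14 and 10.42 on naive and 7.58, 7.51 and 7.52 on primed arrays. It fell by 2.78 on the log2 scale (limma adjusted p = 2.7e-10). Id1 fell by 2.10 and Id2 by 1.03. In the other direction, the Notch ligand gene Dll1 rose by 1.30 and Hes6, a promoter of neurogenesis, by 1.13. Insm1 (0.92), Neurog1 (0.60), Dll3 (0.45) and Neurod1 (0.41) also rose. Neurod4 passed (0.78) although both groups lay in background, and Notch1 (0.19) and Atoh1 (0.25) no longer passed after centring on the median gene. Atoh1 was in background in naive cells and its groups overlapped, with a bound of 1.00-fold. Hes5 (0.03), Neurog2 (0.02), Neurog3 (0.01) and Rest (-0.10), which encodes a repressor of neuronal genes, did not pass. Neurog3 lay in background in both groups, so a change in it could go unseen. Rest passed as a fall after median centring (-0.17).

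Besides Pax6, Fabp7 and Nes, 11 genes of neural progenitors and radial glia were measured. Of these, 5 were higher, 1 was lower and 5 did not pass, with a median of 0.04. Msi1, for an RNA-binding protein of neural stem cells, rose by 1.95 (SE 0.05, limma adjusted p = 3.6e-10), from 9.53, 9.62 and 9.63 on naive to 11.58, 11.58 and 11.49 on primed arrays. Hes1, a Notch target, rose by 0.89 and Prom1 by 0.79. Ptn rose by 0.75 from background, a bound of at least 1.41-fold, and the glutamate transporter gene Slc1a3 rose by 0.39. Ptprz1 was lower (-0.33). Gfap, the filament gene of astrocytes, had a difference of 0.04 with its naive arrays in background.

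Among 20 pan-neuronal genes, 13 were higher in primed cells, 3 were lower and 4 did not pass, with a median difference of 0.40. Dpysl3 (1.60), Nefl (1.44) and Stmn3 (1.43), for proteins of growing axons, the neurofilament and microtubule turnover, led the rises. Nefl read 10.40, 10.37 and 10.45 on naive and 11.84, 11.82 and 11.87 on primed arrays. Dcx, a gene of migrating neurons, rose by 0.92 from background, a bound of at least 1.27-fold. Stmn2 (-0.35), Map1b (-0.27) and L1cam (-0.24) were lower, and Tubb2b (0.05), Mapt (-0.07), Gap43 (-0.08) and Nefm (-0.07) did not pass.

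Of 16 measured paralogs of the structural genes, 3 were higher, 4 were lower and 9 did not pass, with a median of -0.06. Such counts are near the shares of all genes called, 21.8% higher and 22.7% lower. While Tubb3 rose, Tubb4a rose by 0.76, Tubb6 fell by 0.59 on the log2 scale, and Tubb2a (0.03), Tubb2b (0.05) and Tubb1 (-0.01) did not pass. Tubb5 (-0.11) passed as a fall after median centring (-0.18). Beside Fabp7, Fabp3 rose by 0.71, Fabp5 fell by 0.25 on the log2 scale and Fabp4 (-0.09) lay in background in both groups. Fabp5 was read from the brighter of 2 probe sets. As with Zic5, its identifier lies outside the run of the other genes read here from the same chromosome. Beside Map2, Map4 was lower (-0.38) and Map1a (-0.05) did not pass, and Ncam2 (-0.02) lay in background in both groups.

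**Figure D3:**
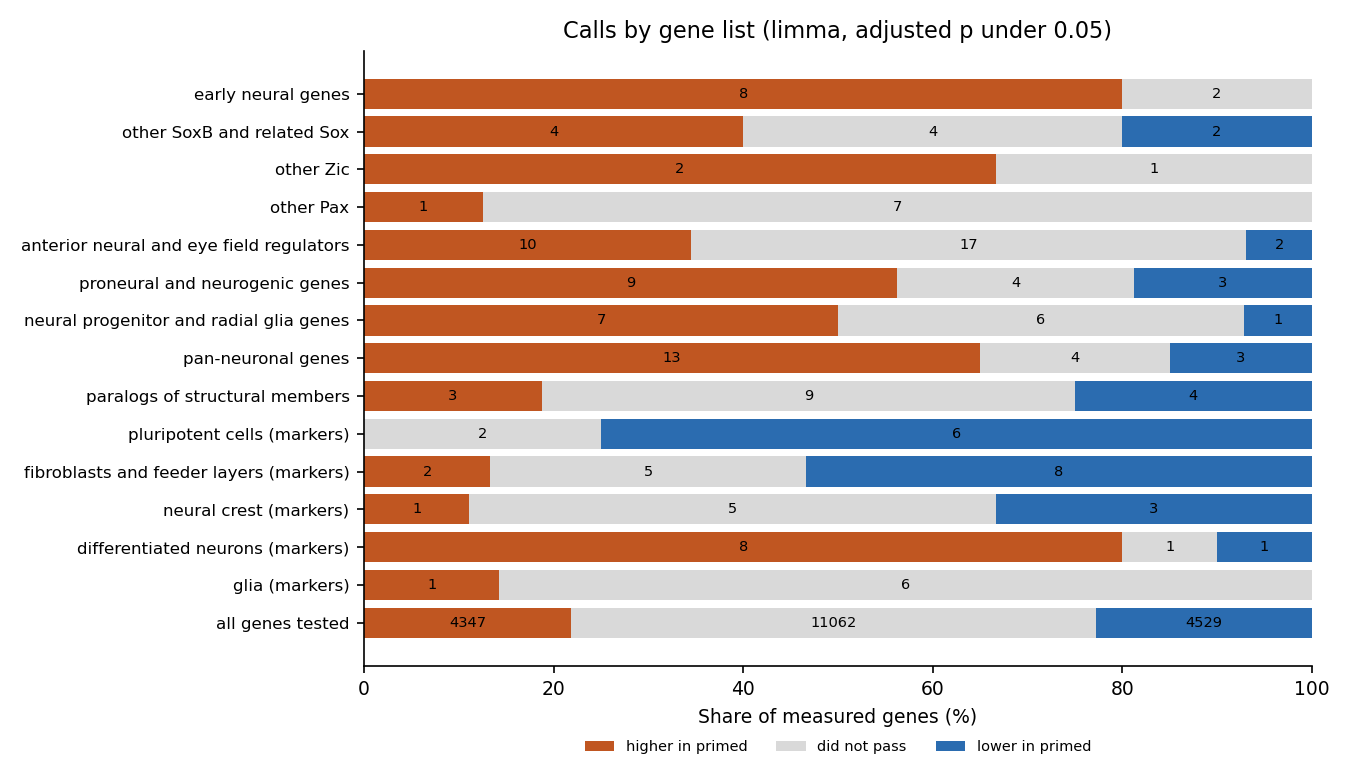
Share of the measured genes of each list (horizontal axis, percent) that were higher in primed cells (orange), lower (blue) or did not pass (grey) by limma, with the number of genes printed in each bar. The early neural genes show 8 rises and 0 falls, against 4347 rises and 4529 falls among all genes tested.

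Markers of other cell types that the cultures could hold moved as follows, and their part in the rises was not tested. The shares over all genes were again 21.8% higher and 22.7% lower. Of 10 markers of differentiated neurons, each of them also in the pan-neuronal list, 8 were higher, 1 lower and 1 did not pass, and their mean level per array was 8.58 to 8.60 in naive and 9.07 to 9.10 in primed cells. The mean level of 15 markers of fibroblasts and feeder cells was 8.43 to 8.46 in naive and 8.34 to 8.38 in primed cells. By limma, 8 were lower, 2 were higher (Dcn and Pdgfrb) and 5 did not pass. In background in both groups were 3 of the 15: Lum, which did not pass, and Postn and S100a4, both counted as lower. Dcn rose by 2.89 and Pdgfrb by 0.37, while the largest fall was 1.23 on the log2 scale, for Acta2. Of 9 neural crest markers, 3 were lower (Foxd3, Snai2 and Ngfr), 1 was higher (Tfap2b, in background in both groups) and 5 did not pass, and their mean level was 7.81 to 7.93 in naive and 7.67 to 7.69 in primed cells. Of 7 glial markers 1 was higher (Mbp, 0.23) and 0 were lower by limma (0 at an unadjusted p under 0.05), with mean levels of 7.03 to 7.08 and 7.11 to 7.13. Of the 8 pluripotent cell markers, 6 were lower, Sox2 among them, and 0 higher (0 at an unadjusted p under 0.05). The mean was 12.04 to 12.06 in naive and 11.40 to 11.44 in primed cells. Dppa4, the largest of these falls (-1.74), was read from the brighter of 2 probe sets. Its identifier lies outside the run of the other chromosome 16 genes read here, so which locus it reads is uncertain.

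The genes whose profile over the 6 arrays was nearest to that of Pax6 were Crabp2, Necab1, Nr0b1, Meis2, Gpm6a and Car14. Likeness was the root mean square difference between profiles, each centred on its own mean, and it was 0.08 for Crabp2 and 0.12 to 0.14 for the other 5, among 17168 genes compared. Since the naive Pax6 values are background readings, the size of its step is a lower bound, and the order of these genes by likeness rests on the values as read. Crabp2, for a carrier of retinoic acid in the cell, read 8.77, 8.49 and 8.62 on naive and 10.85, 11.00 and 10.77 on primed arrays. The same measure between Pax6 and the other early neural genes ran from 0.71 for Fabp7 to 1.27 for Nes, so none of those followed Pax6 in size. With 2 groups of 3 arrays, likeness of this kind mostly reflects an equal step between the groups.

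The chromosomal neighbours of each early neural gene, 3 measured genes on each side in RefSeq order, were read after the values of the 10 genes had been seen. Over all genes, 21.8% were called higher and 22.7% lower. Whether the counts at any locus depart from those shares was not tested. Around Pax6, 3 of 6 neighbours were higher and 1 was lower, and the largest rise was 0.62 for Wt1. Another of these 3, Them7, read a mean of 6.80 in naive and 6.99 in primed cells, near the background cutoffs. Around Sox21, 4 of 6 were higher and 0 lower by limma (0 also at an unadjusted p under 0.05), with Abcc4 at 1.32 and Dzip1 at 1.30, both larger than the rise of Sox21 itself. Around Fabp7, 0 of 6 were higher by limma (0 unadjusted) and 3 were lower, among them Pkib (-0.83), next to it. Around Sox3, 0 were higher (0 unadjusted) and 2 lower, Mcf2 and Ldoc1, both of which lay in background in both groups. Around Sox1, 1 was higher and 0 lower (0 unadjusted), and the neighbour Sox1ot, a transcript that overlaps the Sox1 locus, had a difference of 0.14 (limma adjusted p = 0.092). The higher neighbour, 4931415C17Rik, read a mean of 6.84 in naive and 7.04 in primed cells, near the background cutoffs.

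Around Map2, 3 of 6 were higher and 1 lower, and Unc80 rose by 0.85, about as much as Map2. Kansl1l, another of these 3, read a mean of 6.68 in naive and 7.04 in primed cells, near the background cutoffs. Around Ncam1, 3 of 6 neighbours were higher (Drd2, Ttc12 and Pts, by 0.19 to 0.26) and 1 was lower, Plet1, which fell by 2.0 on the log2 scale. Drd2 read a mean of 6.73 in naive and 6.94 in primed cells, also near the cutoffs. Around Nes, 2 were higher and 2 lower. Next to it lay Crabp2 with its rise of 2.24, and Bcan, for a proteoglycan of the brain matrix, rose by 0.67 on the other side, while Nes itself did not rise. Around Tubb3, 3 were higher and 2 lower, and Mc1r, the gene just before it, rose by 0.20. Around Zic1, 0 of 6 were higher by limma (0 unadjusted) and 4 were lower, led by Adamts7 (-1.04).

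**Figure D4:**
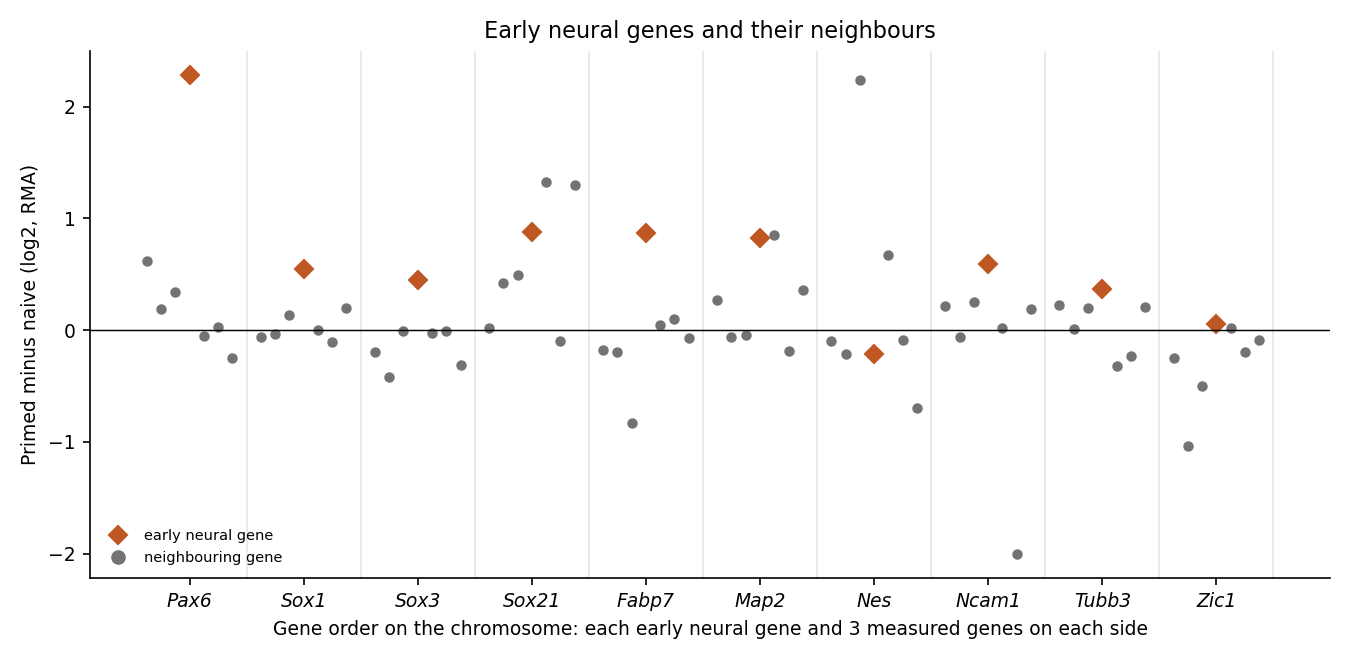
Difference between primed and naive cells (log2 RMA, vertical axis) of each early neural gene (orange diamonds) and of the 3 measured genes on each side of it in chromosome order (grey points). Points around Sox21 lie mostly above 0, those around Fabp7 and Zic1 lie mostly near or below 0, and Crabp2 stands at 2.24 beside Nes.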

How the data were processed

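Total RNA was measured on 6 Affymetrix mouse gene arrays. The authors deposited log2 expression values; the submitters' processing notes name RMA and Partek 6.6. Settings of either tool and a genome build are not given in the sources used. Of 35556 probe sets, 21789 carry 1 gene symbol in GEO's platform annotation, 1621 carry several and 12146 are not named here; 21698 matched RefSeq (GRCm38.p6) by gene ID. The brightest single-symbol probe set stood for each gene, which gave 19938 genes.

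The comparison used lmFit and eBayes of limma 3.58.1 (R 4.3.3), two-sided, with no covariates and no further normalization, adjusted by Benjamini-Hochberg over all genes at 0.05. The script was tested on simulated data. Differences of dim genes are compressed by RMA, and the number of arrays limits the precision. An exact permutation test of 3 against 3 arrays cannot go below p = 0.1 and was not used.

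The 10 genes and the 8 lists and 5 marker lists around them were chosen with earlier results of these data known. Named genes are the 10, the Sox, Zic and Pax families, the 4 list genes with the largest passing differences and the 6 nearest to Pax6; others were named after their values were seen. Alternatives were other scalings, probe set means, a filter at the 40th percentile, an intensity trend, array weights, a replicate block, a threshold of 0.01, leaving out each array and, chosen after seeing the data, leaving out genes in background on every array.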

Additional observations from a re-analysis of the deposited data

How the results depend on the processing

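The rises of Pax6, Sox1, Sox3, Sox21, Fabp7, Map2, Ncam1 and Tubb3 passed under each of the 15 alternatives, with Pax6 between 2.21 and 2.40 and Tubb3, the smallest, between 0.28 and 0.44 (limma adjusted p of 0.0010 to 0.020). Nes passed as a fall, giving 1 lower gene in place of 0, with median centring (-0.29), the 40th percentile filter (-0.21), an intensity trend (-0.21), array weights (-0.24) and with the genes dim on every array left out (-0.21, an alternative added after seeing the data). Leaving out each array in turn moved Nes between -0.29 and -0.14 and the count of lower genes between 0 and 1, with adjusted p-values of 0.013 to 0.20 over all alternatives; the cause was not tested. Zic1, never past the threshold, changed sign with median centring (-0.01). Median centring moved the median of all genes by -0.07.

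With the replicate number as a block, 8 of the 10 genes were higher and 0 lower, and Pax6 differed by 2.29. Over all genes the replicate block gave 4172 higher and 4344 lower. Deviations of same-numbered arrays correlated at -0.11, 0.0015 and -0.02, and those of different-numbered arrays at -0.09 to 0.10. Deviations from a group's own mean are tied together, so these values cannot tell whether the numbers pair the arrays. With the 99th percentile of receptor genes as the cutoff, 1 of the 10 genes still lay in background in both groups. Of the 149 genes of the lists, 13 changed their call with median centring and 4 with quantile normalization, 0 to the opposite direction. Filtering dim genes removed Pax2, left 5 rises among neuronal markers and 5 falls among fibroblast markers, and the neural crest rise was lost without naive replicate 2 (0) and joined by another without naive replicate 1 (2).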

Other observations

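A few neural genes lay just outside the threshold, as Nes did. Olig2, a gene of motor neuron and oligodendrocyte progenitors, differed by 0.15 (limma adjusted p = 0.0502), Otx1 by 0.16 (adjusted p = 0.055) and En1 by 0.12 (adjusted p = 0.066). The groups did not overlap for any of these 3 genes, with primed higher, as held for 25.9% of all genes. Olig2 read 6.98, 7.02 and 6.95 on naive and 7.22, 7.08 and 7.09 on primed arrays, close to the background cutoffs. The 3 genes were picked after their values were seen.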
